A study of Mus musculus with 6 samples.

Results

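The Hoxd cluster genes are the 9 protein-coding genes Hoxd1, Hoxd3, Hoxd4, Hoxd8, Hoxd9, Hoxd10, Hoxd11, Hoxd12 and Hoxd13 on mouse chromosome 2. Their accessible regions were taken from ATAC-seq of neural stem and progenitor cells (NSPCs). A region, here called an interval, was assigned to a Hoxd gene when the nearest protein-coding transcription start site (TSS) to its strongest summit belonged to that gene and lay within 50 kb. This rule gave 29 of 190365 intervals: 14 of 82885 in the parent list and 15 of 107480 in the deletion list. The limit of 50 kb removed no interval, since the Evx2 TSS lay 8.75 kb before that of Hoxd13, the Mtx2 TSS lay 62.8 kb after that of Hoxd1, and no assigned summit was farther than 18.6 kb from its TSS.

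NSPCs were differentiated from embryonic stem cells of a 129S1/Cast F1 hybrid, and both groups carried an mCherry tag on the 129 allele of Sox2. The parent group was 3 cultures of Clone 5B with no deletion. The deletion group was 3 cultures of Clone 47D, in which the Sox2 enhancer cluster SRR2-18 had been removed from both alleles with Cas9. The comparison asked how chromatin accessibility differed once Sox2 was separated from these downstream enhancers. Each genotype is represented by 1 clone, so genotype and clone cannot be told apart. The deposited lists pool the cultures of a genotype, so the values below have no error between cultures, and a difference between the lists cannot be tested. The F1 genome was aligned to a reference that matches the 129 allele more closely than the Cast allele, and reads of both alleles are counted together.

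Hox genes encode homeodomain transcription factors that give cells their position along the head-to-tail axis. Within a cluster the genes lie in the order in which they act: Hoxd1, Hoxd3 and Hoxd4 at the 3′ end are switched on earlier and reach farther towards the head, while Hoxd9 to Hoxd13 at the 5′ end are active in the tail, the lumbar and sacral spinal cord, the limbs and the genital bud. In cells of the forebrain the clusters are normally silent and covered by Polycomb proteins, which bind CpG-rich DNA. Retinoic acid, WNT and FGF signals and the CDX proteins open them in the trunk. The Hoxd cluster lies between Evx2, on the Hoxd13 side, and Mtx2, on the Hoxd1 side, and is crossed by the noncoding genes Hoxd3os1 and Haglr.

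Most Hoxd summits lay in CpG-rich DNA, and the 5 members with at most 5 CpG dinucleotides around the summit were all held by 1 list alone. The reference sequences below (mm10, plus strand, CpG dinucleotides in capitals) run 100 bp to each side of the strongest summit, cut back where an untranslated region begins. The Hoxd10 and Hoxd1 promoters are shown as typical CpG-rich members, the intronic pair because they were the strongest Hoxd3 intervals of each list, and the distal pair for their contrast, which was chosen after their values were seen.
Hoxd10 promoter (chr2:74691666-74691866): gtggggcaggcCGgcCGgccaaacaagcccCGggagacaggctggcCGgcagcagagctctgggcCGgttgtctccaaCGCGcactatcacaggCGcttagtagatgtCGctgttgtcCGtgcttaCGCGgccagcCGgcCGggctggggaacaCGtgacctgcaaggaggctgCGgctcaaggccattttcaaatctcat
Hoxd1 promoter (chr2:74762834-74762979): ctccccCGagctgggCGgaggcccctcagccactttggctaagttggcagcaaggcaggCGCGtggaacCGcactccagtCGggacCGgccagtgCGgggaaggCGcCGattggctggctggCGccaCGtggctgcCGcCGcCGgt
Hoxd3 intron, Hoxd3os1 exon (chr2:74715913-74716113): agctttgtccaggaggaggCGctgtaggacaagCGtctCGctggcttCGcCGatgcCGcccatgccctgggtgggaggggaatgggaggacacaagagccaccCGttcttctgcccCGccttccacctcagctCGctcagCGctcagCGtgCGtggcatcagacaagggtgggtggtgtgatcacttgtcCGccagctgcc
Hoxd3 intron, deletion list only (chr2:74740586-74740786): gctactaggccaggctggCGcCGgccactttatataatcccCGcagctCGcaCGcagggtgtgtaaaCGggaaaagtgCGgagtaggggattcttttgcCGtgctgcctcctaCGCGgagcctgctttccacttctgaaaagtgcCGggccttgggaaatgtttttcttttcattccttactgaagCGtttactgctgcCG
Distal to Hoxd1, parent list only (chr2:74777873-74778073): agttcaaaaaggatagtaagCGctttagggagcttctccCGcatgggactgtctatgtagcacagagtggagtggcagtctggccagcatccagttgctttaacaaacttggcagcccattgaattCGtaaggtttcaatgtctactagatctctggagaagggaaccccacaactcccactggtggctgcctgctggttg
Distal to Hoxd1, deletion list only (chr2:74781469-74781669): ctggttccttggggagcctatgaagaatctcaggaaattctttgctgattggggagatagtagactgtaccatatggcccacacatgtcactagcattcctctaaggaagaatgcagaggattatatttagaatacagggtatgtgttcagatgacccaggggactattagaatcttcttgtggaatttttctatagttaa

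The Hoxd10 window held 16 CpG dinucleotides and the part of the Hoxd1 window shown held 15, against 3 and 0 in the distal windows. The median GC content of the 201 bp around the summit was 64.9% for the 14 parent members and 64.7% for the 15 deletion members, whereas the medians of the whole lists were 52.2% and 48.3%. The median number of CpG dinucleotides was 14.5 in the parent members and 16 in the deletion members, compared with 3 and 2 over all intervals. Since promoters are rich in CpG, the medians were also taken among intervals farther than 1 kb from any protein-coding TSS. There the 7 parent and 9 deletion members each had a median of 13 CpG dinucleotides, against 3 and 2 in all such intervals. TSSs of noncoding genes were not excluded in this step, so the part of noncoding promoters was not tested. The lowest GC content, 40.8% with no CpG, belonged to the distal Hoxd1 interval of the deletion list, and the highest, 83.6% with 38 CpG dinucleotides, to the Hoxd8 promoter.

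**Figure D1:**
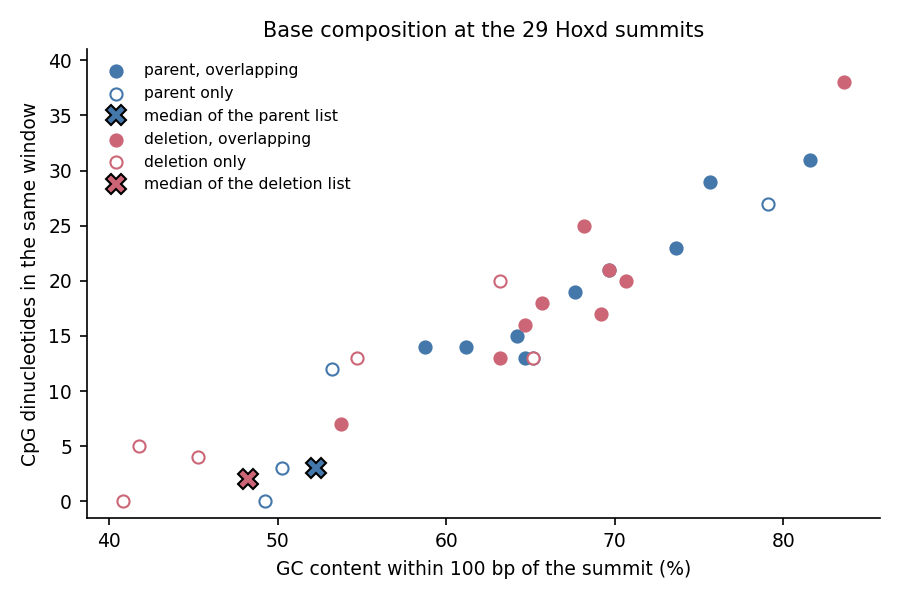
Each point is a Hoxd interval, with the GC content (%) of the 201 bp around its strongest summit on the x axis and the number of CpG dinucleotides in that window on the y axis. Filled points overlap an interval of the other list, open points do not, and crosses mark the medians of the whole lists (52.2% and 3 for parent, 48.3% and 2 for deletion), below and to the left of most members.

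Accessibility was expressed as signal, the number of reads piled up at a summit divided by the lowest background of the list, which is the genome-wide mean (38.8 reads in the parent list and 19.7 in the deletion list). The parent library pool was therefore 1.98 times as deep. The local background, the mean read depth that the peak caller estimated around the peak, is given in the same unit. This mean includes the reads of the peak itself and of nearby peaks, so it is not independent of the signal. All 10 neural progenitor genes examined, Sox2 among them, had an interval within 1 kb of a TSS in both lists. None of the pluripotency genes Pou5f1, Nanog and Zfp42 did. Among markers of other cell types, the neuronal genes Tubb3 and Syn1 and the mesodermal genes Meox1 and Tbx6 had such an interval in both lists, Msgn1 in neither, and Rbfox3 in the deletion list alone. TSS intervals thus did not set the labelled type apart from neuronal or mesodermal cells. The part of these cell types in the Hoxd values was not tested.

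The Hoxd cluster had nearly the same number of intervals in both genotypes, and most of them overlapped. The parent intervals covered 14068 bp and the deletion intervals 12788 bp. Of the 14 parent intervals, 5 had no overlapping deletion interval, where 52.3% of all parent intervals had none. Of the 15 deletion intervals, 6 had no overlapping parent interval, where the share over the whole list was 63.1%. The remaining 9 in each list formed 9 pairs. Unmatched Hoxd intervals were thus no more frequent than unmatched intervals of the whole lists. Intervals within 1 kb of a Hoxd TSS numbered 7 in the parent and 6 in the deletion list. Over the whole lists, 16.7% of parent and 13.7% of deletion intervals lay within 1 kb of a TSS. The unmatched shares were not taken separately for intervals near and far from a TSS, so the part of promoter content in them was not tested.

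**Figure D2:**
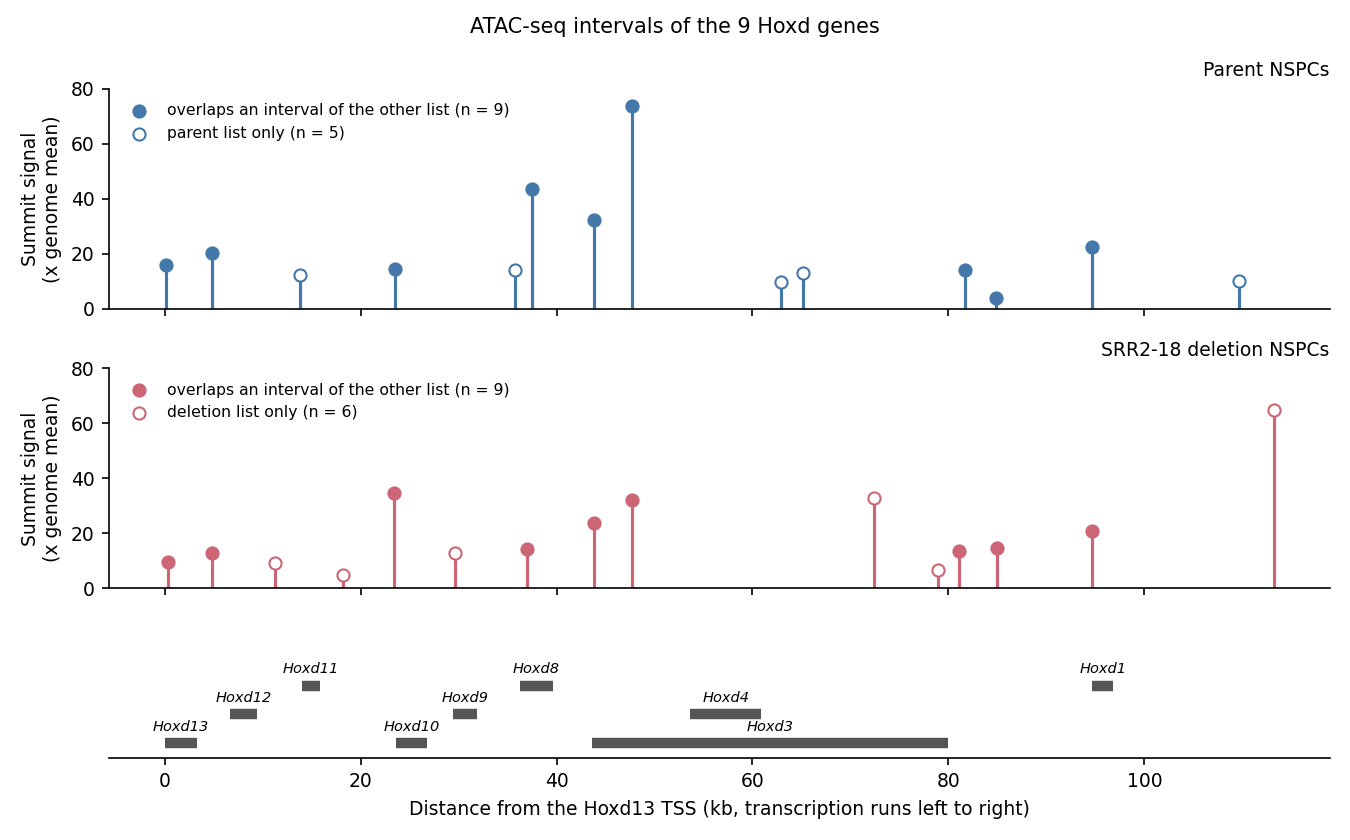
Signal at the strongest summit (multiples of the genome-wide mean) of each Hoxd interval in the parent (top) and deletion (middle) lists, against distance from the Hoxd13 TSS in kb, with the genes below. Filled points overlap an interval of the other list and open points do not; the highest parent point (73.8) stands in an intron of Hoxd3 and the highest deletion point (64.8) beyond Hoxd1, where the parent list has no interval.

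The 5′ genes differed between the lists in opposite directions. Signal was lower in the deletion list at Hoxd13 and Hoxd12, the TSS interval of Hoxd11 was held by the parent list, and at Hoxd10 and Hoxd9 the deletion list had the higher signal or the only interval. Over Hoxd9 to Hoxd13 the parent list had 4 intervals and the deletion list 6, of which 1 and 3 had no counterpart, shares below the 52.3% and 63.1% of all intervals.

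Hoxd13 patterns the digits and the genital bud and lies at the 5′ end. Its TSS interval had a signal of 15.9 in the parent list (618 reads) and 9.51 in the deletion list (187 reads). The ratio of deletion to parent was 0.60, with an exact 95% counting interval of 0.505 to 0.705. Counting intervals here and below cover the sampling of reads in the pooled libraries only. In fold enrichment over the local background the ratio was 0.86, beside a local background ratio of 0.69. Of all overlapping pairs, 24.4% had a lower signal ratio. The parent interval held 2 summits, 144 and 343 bp after the TSS, and the deletion interval held 4 with signals from 5.80 to 9.51. Their widths were alike, 989 bp in the parent and 1021 bp in the deletion list.

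Hoxd12, a neighbour with overlapping roles in the limb, had no interval at its TSS in either list. Its interval lay 1.87 kb upstream in the parent list and 1.85 kb upstream in the deletion list, with summits 22 bp apart. The signal was 20.2 in the parent list and 12.9 in the deletion list, a ratio of 0.64 (counting interval 0.554 to 0.739). In fold enrichment the ratio was 0.92, beside a local background ratio of 0.68, and 28.6% of all overlapping pairs had a lower signal ratio. This interval was the highest of the 5′ genes in the parent list.

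Hoxd11, which acts with Hoxa11 in the forearm and in the lower spine, was the gene whose intervals differed most in place. In the parent list a 1700 bp interval (chr2:74681544-74683243) spanned its TSS with 5 summits whose signals ran from 6.85 to 12.2. The deletion list held no interval there and had instead an interval 2.75 kb upstream, with a signal of 9.26 (182 reads), and a narrow one of 240 bp located 4.16 kb downstream, with a signal of 4.88 (96 reads). The downstream interval had an IDR score of 590, close to the lowest in the list (540), and ranked in the weakest part of the list by reads (top 98.9%). Neither of these deletion intervals stood in the more permissive optimal list of the same genotype, which did hold an interval at the Hoxd11 TSS with a signal of 5.90. The Hoxd11 TSS thus had an interval in both genotypes once the permissive list was read, at a lower signal in the deletion.

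Hoxd10, a gene of the lumbar spinal cord and its motor neurons, had the highest ratio of the promoters. Signal 141 bp upstream of its TSS was 14.5 in the parent list (565 reads), and 158 bp upstream it was 34.6 in the deletion list (681 reads). The ratio was 2.38 (counting interval 2.13 to 2.67), and the interval moved from the top 56.3% of its list by reads to the top 25.95%. The deletion interval was also narrower, 658 bp with 2 summits against 1615 bp with 5. The 3 parent summits inside the gene, 329 to 843 bp after the TSS, had signals of 2.52 to 5.90 and no counterpart in the deletion list.

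Hoxd9, the most 3′ gene of this group, had an interval in the deletion list alone (chr2:74697481-74699068). It covered the TSS and the 5′ part of the gene with 7 summits between 24 and 1258 bp downstream, whose signals ran from 4.48 to 12.97. The strongest had 255 reads and stood 242 bp after the TSS. The optimal parent list held an interval at the same place with a signal of 5.17 (201 reads), the local background there being at the genome-wide mean. Hoxd9 thus had open chromatin in both genotypes once the permissive list was read, at a lower signal in the parent.

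Hoxd8, the only gene of the middle group in this cluster, had the lowest ratio of the 9 pairs. Its TSS interval started at the same base in both lists and was 1633 bp wide in the parent list and 1539 bp in the deletion list. The strongest summit had a signal of 43.6 in the parent list (1695 reads) and 14.4 in the deletion list (283 reads), a ratio of 0.33 (counting interval 0.290 to 0.374). In fold enrichment the values were 8.11 and 7.41, a ratio of 0.91, beside a local background ratio of 0.35. These summits lay 508 bp apart, so neighbouring summits were also set side by side. Near the TSS the parent had a summit at 163 bp with a signal of 28.6 and the deletion list one at 152 bp with 14.4. Inside the gene the parent summit at 660 bp had 43.6 and the deletion summit at 673 bp had 8.29, so the strongest summit stood in the gene body in the parent and near the TSS in the deletion list.

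Just upstream, 567 bp before a Hoxd8 TSS, the parent list held a further interval of 327 bp that the deletion list lacked. Its signal was 14.0, but its fold enrichment over the local background was 2.69, in the weakest part of the parent list (top 98.3%). This interval rose little above its local background, which was high in the middle of the cluster in the parent list. The local background was 5.21 and 5.36 at the parent intervals of Hoxd8, 5.11 at the 5′ TSS of Hoxd3 and 4.98 at the interval in its intron. These 4 intervals ranked between the top 17.4% and the top 19.2% of the parent list by local background. At the 3 overlapping deletion intervals it was 1.90, 2.46 and 2.42. Elsewhere in the cluster the local background lay between 1.00 and 2.65 in the parent list and between 1.20 and 2.45 in the deletion list. Values at neighbouring intervals are not independent, since their means share reads and include those of the peaks. All 4 parent intervals lie within the gene body of Hoxd3os1, a noncoding gene transcribed against the Hoxd genes. ATAC-seq carries no strand, so accessibility of that gene and of the Hoxd genes it covers cannot be told apart.

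**Figure D3:**
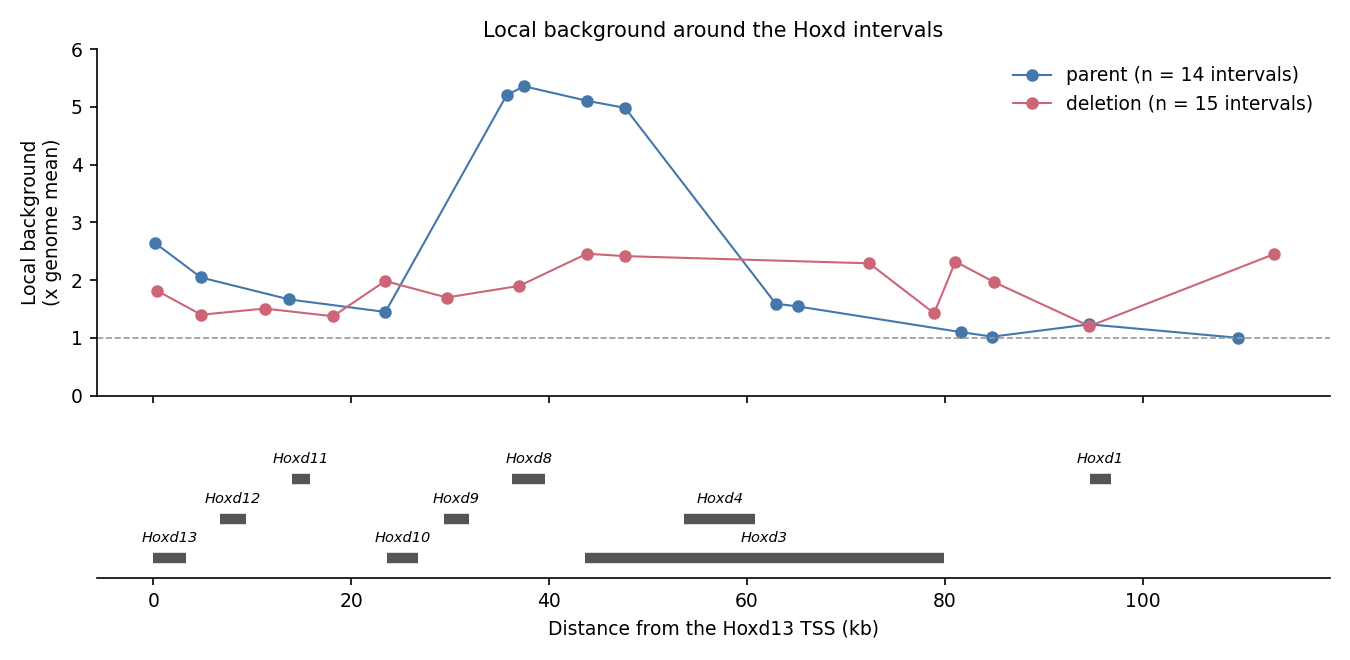
Local background (multiples of the genome-wide mean, dashed line at 1) at each Hoxd interval in the parent and deletion lists, against distance from the Hoxd13 TSS in kb, with the genes below. The 4 parent intervals from Hoxd8 to the intron of Hoxd3 sit between 4.98 and 5.36, above all deletion intervals (1.20 to 2.46).

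Hoxd3, whose protein patterns the upper neck vertebrae, had the most intervals of the 9 genes, 4 in the parent and 5 in the deletion list. At its 5′ TSS the signal was 32.5 in the parent and 23.8 in the deletion list, with a ratio of 0.73 (counting interval 0.658 to 0.816). Here the measure decided the direction: the fold enrichment over local background was 6.33 in the parent and 9.51 in the deletion list, a ratio of 1.503. The lower signal went with a local background 0.48 times that of the parent.

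The strongest Hoxd interval of the parent list lay 4.09 kb downstream of that TSS, in an exon of Hoxd3os1 and an intron of Hoxd3, at the CpG-rich window printed above. Signal there was 73.8 in the parent list (2868 reads) and 31.9 in the deletion list (628 reads), a ratio of 0.43 (counting interval 0.396 to 0.472), with summits 44 bp apart. It was among the top 13.8% of the parent list by reads and the top 28.5% of the deletion list. In fold enrichment the values were 14.7 and 12.97, a ratio of 0.88, and the local background had a ratio of 0.48. The local background includes the reads of the peak, so its ratio and that of the signal are not independent.

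In the remaining part of Hoxd3 the lists held different intervals. The parent list had a 1642 bp interval 3.07 kb upstream of an internal Hoxd3 TSS, in an intron, with 6 summits of which the strongest reached 13.1 (508 reads). The deletion list had none there, and instead an interval 1.07 kb downstream of the most 3′ Hoxd3 TSS (chr2:74740318-74741156), in an intron, with a signal of 33.0 (648 reads) at a single summit. Among deletion members only the distal Hoxd1 interval and the Hoxd10 promoter were higher, and neither parent list held an interval overlapping it. A weaker deletion interval with a signal of 6.61 (130 reads) lay in the last exon, 7.63 kb from the TSS, and was also absent from both parent lists. Past the end of the gene, in an exon of Haglr, the lists shared an interval with a signal of 14.1 in the parent and 13.5 in the deletion list, a ratio of 0.96 (counting interval 0.828 to 1.12). In fold enrichment the values were 12.5 and 5.72, a ratio of 0.46, the lowest of the 9 pairs by that measure, beside a local background ratio of 2.11. The strongest summits were 575 bp apart, and the deletion summit nearest to that of the parent had a signal of 12.8.

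Hoxd4, which marks a boundary in the hindbrain, had no interval at either of its TSSs in the conservative lists. Its only interval stood 4.16 kb downstream in the parent list (chr2:74730912-74731673), in an intron of Hoxd3, with a signal of 9.63 (374 reads) and no CpG dinucleotide at the summit. No deletion list held an interval overlapping it. The optimal deletion list did hold intervals at both Hoxd4 TSSs, with signals of 7.48 and 6.05, and the optimal parent list had none there.

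Hoxd1, at the 3′ end, had nearly equal signal at its promoter in both genotypes. The summit lay 46 bp upstream of the TSS in the parent list with a signal of 22.4 (871 reads) and 36 bp upstream in the deletion list with 21.01 (413 reads). The ratio was 0.94, and its counting interval of 0.831 to 1.05 included 1. The local background there was also alike, 1.23 and 1.20.

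Away from the promoter Hoxd1 held the largest differences of the cluster. At 9.85 kb upstream, in the body of Haglr, the weakest parent member (signal 3.96, 154 reads) was paired with a deletion interval of signal 14.6 (287 reads), a ratio of 3.68 (counting interval 3.02 to 4.51). Its IDR scores of 558 and 684 were low in both lists, and in the parent list it stood in the top 99.05% by reads. At 15.0 kb downstream, between Hoxd1 and Mtx2, the parent list held an interval with a signal of 10.1 (392 reads) that the deletion list lacked. At 18.6 kb downstream the deletion list held an interval with a signal of 64.8 (1273 reads) that neither parent list held (chr2:74781320-74781979).

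The interval 18.6 kb past Hoxd1 was the strongest Hoxd member of the deletion list, nearly as high as the strongest parent member. It ranked in the top 2.12% of the deletion list by fold enrichment (25.9), the top 6.76% by −log10 p and the top 10.2% by reads. Its window, printed above, is AT-rich and without CpG, unlike the promoters of the cluster. It lies outside every annotated gene, on the Mtx2 side, in the DNA between the cluster and Mtx2.

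**Figure D4:**
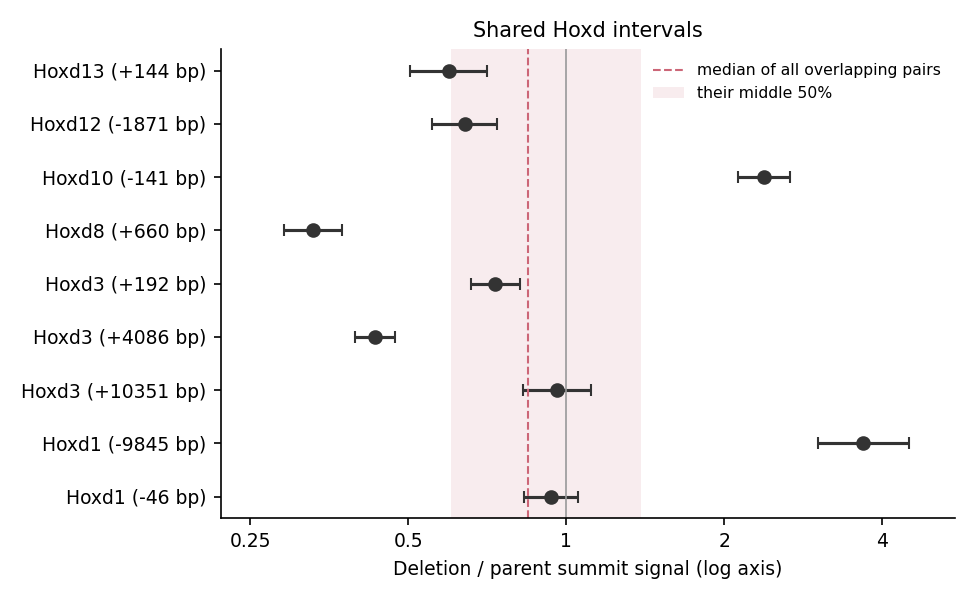
Ratio of deletion to parent signal (log axis) for the 9 pairs of overlapping Hoxd intervals, labelled with the parent summit's distance from its TSS; bars are exact 95% counting intervals, which hold no replicate error. The dashed line marks the median of all 40114 pairs (0.847) and the shaded band their middle 50% (0.604 to 1.39); Hoxd8, the Hoxd3 intron and, at its edge, Hoxd13 (0.598) lie below the band, and Hoxd10 and the upstream Hoxd1 interval lie above it.

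Over the 9 pairs the median ratio was 0.73, and 7 of 9 ratios were below 1. The median over all 40114 overlapping pairs was 0.847, a shift of the whole comparison of -0.24 on the log2 scale, and 61.1% of all pairs were below 1. Relative to that shift 5 of the 9 Hoxd pairs were below 1, and the Hoxd1 promoter (1.11) and the Haglr exon (1.14) passed to above 1. Ratios of at least 2 were found at 2 of 9 pairs, against 16.0% of all pairs, and ratios of at most 0.5 at 2 of 9, against 16.5% of all pairs. With 9 pairs these counts are close to the shares of all pairs. By fold enrichment no pair reached 2, with 1.72 at Hoxd10 and 1.90 upstream of Hoxd1, and 1 pair, the Haglr exon, was at or below 0.5. After division by the median of all pairs the Hoxd3 intron stood at 0.51, and Hoxd8 at 0.39 was then the only pair at or below 0.5.

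The interval sequences were searched on both strands for short motifs of factors that act on or through Hox genes. The motifs were CTCF, HOX9-13 (TTTATNG or TTTACG), CDX (TTTATNA or TTTATTG, the last of which also matches HOX9-13), HOX-PBX (TGATTNAT) and AP-1 (TGANTCA). A SOX match was any of ACAATGG or the variant ACAAAGG or the variant ACAATAG. Windows of 100 bp to each side of the summit that held a match are printed here with the match in capitals, so that the motifs can be read in place, except for a window in the last exon of Hoxd3 that is untranslated.
Upstream of Hoxd11, deletion list only (chr2:74679478-74679678): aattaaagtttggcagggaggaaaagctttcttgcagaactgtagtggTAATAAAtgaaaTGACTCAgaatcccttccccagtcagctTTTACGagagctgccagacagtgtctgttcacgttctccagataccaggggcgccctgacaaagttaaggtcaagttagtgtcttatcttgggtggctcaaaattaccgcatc
Downstream of Hoxd4, parent list only (chr2:74731135-74731335): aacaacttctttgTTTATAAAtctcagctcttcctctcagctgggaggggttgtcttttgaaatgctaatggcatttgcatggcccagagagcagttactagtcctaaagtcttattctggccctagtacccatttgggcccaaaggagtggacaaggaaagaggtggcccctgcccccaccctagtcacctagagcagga
Upstream of a Hoxd3 TSS, parent list only (chr2:74733350-74733550): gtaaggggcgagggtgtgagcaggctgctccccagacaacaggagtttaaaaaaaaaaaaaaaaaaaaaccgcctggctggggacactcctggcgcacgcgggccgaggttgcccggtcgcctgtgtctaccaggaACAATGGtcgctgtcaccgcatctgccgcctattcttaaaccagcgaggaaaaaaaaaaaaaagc
Haglr exon downstream of Hoxd3, both lists (chr2:74749870-74750070): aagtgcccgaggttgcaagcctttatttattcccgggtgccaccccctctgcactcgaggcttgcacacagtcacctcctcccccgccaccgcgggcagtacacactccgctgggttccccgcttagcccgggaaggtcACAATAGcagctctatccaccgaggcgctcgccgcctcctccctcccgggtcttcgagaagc
Upstream of Hoxd1, both lists (chr2:74753035-74753235): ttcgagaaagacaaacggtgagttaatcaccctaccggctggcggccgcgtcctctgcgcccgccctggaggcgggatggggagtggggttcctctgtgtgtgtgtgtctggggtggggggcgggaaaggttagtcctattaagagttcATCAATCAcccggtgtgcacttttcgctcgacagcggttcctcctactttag

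Within 100 bp of the summit an AP-1 match was found in 1 of 15 deletion members, the interval upstream of Hoxd11, whereas 37.9% of all deletion intervals held one. None of the 14 parent members had a match, beside 7.28% of all parent intervals. The Hoxd11 interval also held the HOX9-13 letters TTTACG, 9 bp from its summit, and a CDX match. The other HOX9-13 matches stood in the last exon of Hoxd3 in the deletion list, where 2 copies lay beside a HOX-PBX match that shares letters with the nearer copy. HOX9-13 matches were thus found in 2 of 15 deletion members (10.5% of all deletion intervals) and in 0 of 14 parent members (6.46% of all parent intervals).

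A CDX match was found in 1 parent member, the interval downstream of Hoxd4, where the letters read on both strands overlap, and in 1 deletion member, against 7.52% and 13.9% of all intervals. A SOX match stood in 2 parent members, both in or beside Hoxd3, and in 0 deletion members, against 13.7% and 8.12%. The SOX letters of the Haglr exon were 42 bp from the parent summit and 617 bp from the strongest deletion summit. Anywhere in the interval, a SOX match stood in 5 of 14 parent and 5 of 15 deletion members. The shares of all intervals were then 32.2% and 24.4%. HOX-PBX letters stood in 1 member of each list, against 2.16% of parent and 7.60% of deletion intervals. No member held a CTCF match, which 4.12% of parent and 2.67% of deletion intervals did. The widest gap between members and all intervals was that of AP-1 in the deletion list, and none of these gaps was tested. The whole lists were also less GC-rich than the members and had a smaller share of intervals near a TSS. Motif shares were not taken among intervals of like composition.

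The neighbours on both sides were read to place the cluster. On the Hoxd13 side, Evx2 had 3 parent and 4 deletion intervals, and its 3 pairs had ratios of 0.79, 0.51 and 0.48, of which the lowest lay between Evx2 and Hoxd13. The Lnpk promoter farther out had a ratio of 0.82. On the Hoxd1 side, Mtx2 had 2 parent and 5 deletion intervals, with ratios of 0.71 at its TSS and 1.69 at an interval between it and Hoxd1. By fold enrichment this last pair had a ratio of 0.95, the Mtx2 TSS 1.17 and the Lnpk promoter 1.18. The Evx2 pairs had 0.60, 0.49 and 0.59 by that measure. Relative to the median of all pairs (0.847), the signal ratios were 0.94, 0.61 and 0.57 at Evx2 and 0.97 at Lnpk. At Mtx2 they were 0.84 and 2.00. The signal ratios of the neighbours thus lay below 1 on the Hoxd13 side and on both sides of 1 on the Hoxd1 side. At Lnpk, at the Mtx2 TSS and at the interval between Mtx2 and Hoxd1 the direction depended on the measure.

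In the lists as deposited, the number of Hoxd intervals differed little between the genotypes. The Hoxc genes had 7 parent and 27 deletion intervals and the Hoxb genes 24 and 40, whereas Hoxa had 23 and 21 and Hoxd 14 and 15. When the deletion list was cut to the length of the parent list, Hoxd had 14 parent and 10 deletion intervals by fold enrichment, or 11 by −log10 p, and its unmatched deletion intervals fell from 6 to 3. The other clusters were not counted in that way. Deletion intervals without a parent counterpart made up 21 of 27 at Hoxc, 18 of 40 at Hoxb, 8 of 21 at Hoxa and 6 of 15 at Hoxd. Against the 63.1% of all deletion intervals, the share was higher at Hoxc and lower at the other clusters. Among paralogues 9 to 13 the counts went from 4 to 6 in Hoxd, 5 to 8 in Hoxa, 4 to 12 in Hoxb and 2 to 11 in Hoxc. The median ratio of shared pairs was 1.11 in Hoxb (22 pairs) and 1.29 in Hoxc (6 pairs), against 0.849 in Hoxa (13 pairs) and 0.73 in Hoxd. By fold enrichment the order turned: the median ratio was 0.917 in Hoxd, 0.809 in Hoxa, 0.696 in Hoxb and 0.519 in Hoxc. The median local background of the Hoxd members went from 1.63 to 1.90, that of Hoxc from 1.20 to 2.66, that of Hoxb from 2.72 to 4.19 and that of Hoxa from 3.86 to 2.37. Over the 9 Hoxd pairs, in contrast, the median ratio of local background was 0.686, so the Hoxd medians differ in direction between all members and the pairs. These are counts from pooled lists, and the differences between clusters were not tested.

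**Figure D5:**
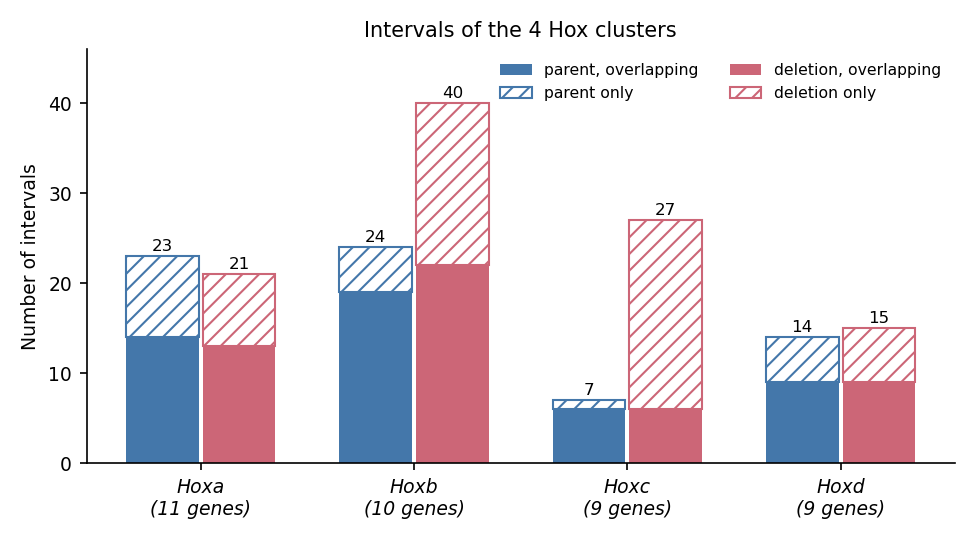
Number of intervals assigned to the genes of each Hox cluster in the parent and deletion lists; the filled part of a bar overlaps an interval of the other list and the hatched part does not. Hoxc rises from 7 to 27 and Hoxb from 24 to 40, while Hoxd goes from 14 to 15 and Hoxa from 23 to 21.

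A list of 10 genes of the caudal programme (Cdx1, Cdx2, Cdx4, Evx1, Evx2, Gdf11, T, Wnt3a, Fgf8 and Cyp26a1) had 29 parent and 38 deletion intervals. Of these, 8 parent and 17 deletion intervals had no counterpart (27.6% and 44.7%), below the 52.3% and 63.1% of all intervals. The Hoxd members had a median signal of 14.3 in the parent list (14 intervals) and 14.4 in the deletion list (15 intervals). These medians were alike, but they cover partly different intervals. Over the 9 overlapping Hoxd pairs the median ratio of deletion to parent signal was 0.73, with 7 of 9 ratios below 1. The median over all overlapping pairs was 0.847. Single Hoxd members differed in both directions.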

How the data were processed

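ATAC-seq reads were processed by the authors with the ENCODE ATAC-seq pipeline, aligned to mm10, called with MACS2 and combined over 3 cultures of each genotype by IDR. Per genotype the authors deposited a conservative and an optimal list, in which each peak has a summit, an IDR score, a fold enrichment (a ratio to local background) and −log10 values of p and q, the last not used here. All values are pooled, and depth per culture is not given by these files. The conservative lists (82885 and 107480 intervals, a repeated interval being kept once with its summit of highest fold enrichment) were the main data. Summit reads and local background were solved from fold enrichment and −log10 p under a Poisson model, and 99.9993% of parent and 100% of deletion values came out whole within 0.05. This step, the overlaps and the gene assignment were tested on simulated data.

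Nearest TSSs were those of 21938 protein-coding genes (GENCODE M21 basic), an overlap of 1 bp paired intervals, and motifs were exact matches in RefSeq GRCm38 sequence. No test was made, and all counts are descriptions. Named were all 9 genes, with each gene's interval nearest its TSS, every unmatched interval and every pair with a ratio of at least 2 or at most 0.5. The members, gene lists and motifs were chosen with earlier results of these data known. Alternatives were the optimal lists, an IDR of 0.01, other overlap rules, lists of the same length, a distance of 10 kb, all annotated genes, merged intervals, other measures for the pairs and other motif windows. The ratio relative to all pairs and the local background ratio were added after the data were seen. Python 3.11.15, numpy, pandas, scipy and pysam were used.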

Additional observations from a re-analysis of the deposited data

Results flagged for a closer look

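The optimal lists, which the main counts and pair ratios above do not use, held 5 Hoxd intervals that the conservative list of the same genotype lacked. In the parent this was the Hoxd9 interval (chr2:74697577-74698791, signal 5.17), which overlaps the deletion interval at that gene. In the deletion list these were the Hoxd11 TSS (chr2:74681696-74682903, signal 5.90), which overlaps the parent interval there, both Hoxd4 TSSs (83 bp downstream, signal 7.48, and 366 bp downstream, signal 6.05) and a site 27.4 kb downstream of Hoxd1 (signal 6.16). All 5 ranked low in their list by reads, between the top 84.2% and the top 92.6%. Their IDR scores ran from 703 to 1000. There were no control samples for such a comparison, and each signal is a pooled value without replicate error.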

How the results depend on the processing

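The numbers of Hoxd intervals stayed within 1.5 times of the values above in all alternatives run (11 to 15 in the parent and 10 to 17 in the deletion list), and parent-only counts ran from 4 to 7. Deletion-only intervals numbered 6 and fell to 3 when the deletion list was cut to the length of the parent list, by fold enrichment (3) or by −log10 p (3), and were 4 to 7 in the other alternatives. The median pair ratio, 0.73, was 0.917 for fold enrichment, 0.884 for the percentile of summit reads, 0.820 for the percentile of −log10 p and 0.866 relative to all pairs, below 1 in each. Motif counts depended on the window. Within 50 bp of the summit CDX matches went from 2 to 0 and HOX-PBX from 2 to 1. Anywhere in the interval HOX9-13 went from 2 to 10, CDX to 14, AP-1 from 1 to 6, HOX-PBX to 5 and SOX from 2 to 10. The limit was 1.5 times for counts and, for the pair ratio, the counting interval of the median pair (0.658 to 0.816). In all, 46 alternative values were within these limits and 13 moved. The longer windows hold more bases by construction. No culture could be left out and no paired analysis was possible because the deposited lists pool the cultures and no test was made. Absence from a list means that no peak passed IDR, and the deeper parent pool passed weaker peaks, with 1% of its intervals under a signal of 3.96 (4.83 in the deletion list).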
